A study of Rattus norvegicus with 8 samples.

Results

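The 10 genes described here encode core proteins of the synaptic vesicle and its release machinery: Syn1, Syn2, Syp, Syt1, Syt2, Snap25, Vamp1, Vamp2, Cplx1 and Cplx2. They were taken as every non-control probe whose gene name in the scanner files, without a suffix for a predicted or mapped gene, was 1 of these symbols. That gave 15 of the 41012 distinct probes on the array. A probe was tested where its signal stood well above background on 4 or more of the 8 arrays. Of the 15 member probes 14 met this, of 27152 that did in all.

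The samples were medial thalamus from 8 male Sprague-Dawley rats, handled conscious, whose ages are not given in the sources used here. The 4 occlusion animals had been conditioned with tracheal occlusions, brief blocks of the airway lasting 3 to 10 breaths with about 30 s of recovery between them. The 4 surgical controls went through sessions without occlusions. Sessions were daily for 10 days, and the animals were killed by an anaesthetic overdose within 10 min of the last one. Each animal's total RNA (1 µg) was labelled with the dye Cy3 and put on an Agilent oligonucleotide array of its own. The question put to the members is whether their transcripts differ after this conditioning.

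Neurons store transmitter in synaptic vesicles and release it when calcium enters the terminal. Synapsins tether vesicles in a reserve pool, synaptophysin is an abundant protein of the vesicle membrane, and synaptotagmins are the calcium sensors. VAMP proteins (synaptobrevins) on the vesicle pair with SNAP-25 and syntaxin on the plasma membrane to form the SNARE complex that drives fusion, and complexins bind that complex and control when it fires. In the brain these genes mark neurons of many kinds, and the paralogues Syt1 and Syt2, Vamp1 and Vamp2, and Cplx1 and Cplx2 are used in different proportions by different neurons, Syt2 and Vamp1 often by fast-firing ones.

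All levels below are log2 processed signal minus the array's 75th percentile, so a level of 0 is the 75th percentile of that array's spots and a difference of 1 is a doubling. A level of one probe is not comparable with that of another probe, because probes differ in how well they bind. Between 65.0% and 71.6% of spots per array were well above background and 1.05% to 1.55% were saturated. The arrays lay on 2 slides, each scanned on its own, with 2 arrays of each group on each. Arrays also differed in marker genes of cell types within and around the medial thalamus. Summed signals of such lists, in multiples of the array's 75th percentile, take only markers with a value on all 8 arrays and saturation on none. Control 3 had the lowest sum of 7 thalamic relay neuron markers (1.99, against 2.34 to 7.11 on the other arrays) and of 6 general neuron markers (48.4 against 61.2 to 76.2). It also had the highest sum of 9 markers of GABA neurons (66.1, against 5.26 to 43.8 elsewhere). Occlusion 3 had 43.8, most of it from Sst. Without Sst control 3 had 46.4. Occlusion 3 then had 11.9, below controls 1 and 2 (18.8 and 20.3) but above control 4 (9.52) and the other occlusion arrays (3.63 to 6.05). Values without control 3 or occlusion 3 are given below where they move a member by over 1.5 times or turn its direction.

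None of the 14 tested member probes passed an adjusted p of 0.05 in limma, and neither did any other probe on the array (0 of 27152 kept probes called, 0%). The smallest adjusted p was 0.403, shared by member and other probes. At an unadjusted p under 0.05, 5 of the 14 member probes stood out, 4 of them higher and 1 lower on occlusion arrays, where 11.1% of all kept probes did (6.48% higher and 4.61% lower). The 4 higher ones included the overlapping pair of Syt1 probes described below. Of the 14 probes, 10 were higher and 4 lower on occlusion arrays by any amount, and 53.6% of all kept probes were higher. Over the 12 member probes saturated on no array, 8 were higher and 4 lower. The median difference over the member probes was 0.27 on the log2 scale, beside 0.02 over all kept probes. For 3 member probes the groups did not overlap, all higher on occlusion arrays, which held for 3.9% of all kept probes, and none was lower without overlap, beside 2.82% of all kept probes. The difference had the same sign on both slides for 11 of the 14.

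**Figure D1:**
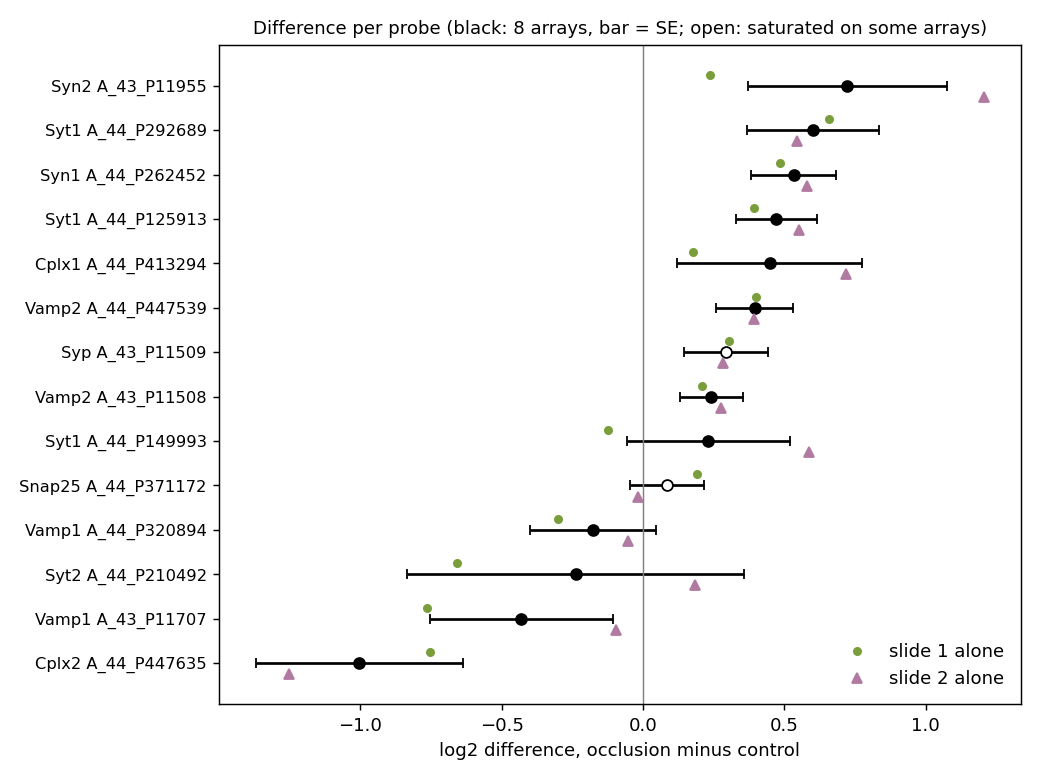
Difference between occlusion and control arrays for each of the 14 kept member probes (x axis, log2; one line per probe, named by gene and probe ID). Black points are the fit over 8 arrays with bars of 1 SE, open points are probes saturated on some arrays, and the green dots and purple triangles are slide 1 and slide 2 alone. Syn2 at 0.72 is the highest, and Cplx2 at -1.003 lies far below the other 13.

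Among the vesicle-tethering synapsins, Syn1 was higher on the occlusion arrays. The Syn1 probe (A_44_P262452, rat assembly rn3, chrX:12560168-12560227) read -0.05, -0.45, 0.01 and 0.05 on occlusion arrays 1 to 4 and -0.53, -0.87, -0.70 and -0.48 on control arrays 1 to 4. Every occlusion array lay above every control array, with occlusion 2 only just above the highest control. Means were -0.11 ± 0.23 (SD, n = 4) and -0.64 ± 0.18 (SD, n = 4), a difference of 0.53 with an SE of 0.15, or 1.45-fold, at a limma adjusted p of 0.403. It was 0.48 on slide 1 and 0.58 on slide 2, and 0.46 to 0.65 when each array in turn was left out.

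The Syn2 probe (A_43_P11955, chr4:151637722-151637781) read 2.70, 2.30, 2.34 and 2.30 on occlusion arrays and 2.17, 1.53, 0.66 and 2.40 on control arrays. Here the occlusion arrays were close together, and the controls spread over 1.74 log2 units, with control 3 far below the rest and control 4 above 3 of the occlusion arrays. The difference was 0.72 with an SE of 0.35 (adjusted p = 0.479 in limma). Without control 3 it was 0.38, and it was 0.24 on slide 1 against 1.21 on slide 2, which holds control 3.

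Syp, the gene of synaptophysin, was too bright to be measured in full. Its probe (A_43_P11509, chrX:26944113-26944172) was saturated on 4 of 4 occlusion arrays and on 1 of 4 control arrays, at processed intensities of 57340 to 63780 and 50640 to 63940. Levels were 5.15, 5.30, 5.45 and 4.85 on occlusion arrays and 4.95, 4.84, 4.74 and 5.03 on control arrays, so 3 of the 4 occlusion arrays lay above all controls and occlusion 4 did not. Occlusion 4 had the highest 75th percentile of all arrays (2216), which lowers the level of a saturated probe. The group means as read, 5.19 and 4.89, are 1.23-fold apart, but both hold saturated arrays, so the true fold is not known. The adjusted p was 0.490 in limma, and the differences as read were 0.30 and 0.28 on slides 1 and 2.

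Syt1, the main calcium sensor for fast release in the forebrain, had 3 probes on the array. A_44_P125913 (chr7:47410236-47410295) read 0.51, 0.75, 0.69 and 0.27 on occlusion arrays and 0.23, 0.06, -0.15 and 0.19 on control arrays. All occlusion arrays lay above all controls, though occlusion 4 and control 1 were only 0.04 apart. The difference was 0.47 with an SE of 0.14, or 1.39-fold (adjusted p = 0.403 in limma), and 0.39 and 0.55 on slides 1 and 2.

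A second Syt1 probe, A_44_P292689, was printed 10 times and is annotated as a splice variant. Its listed ends on chromosome 7 (47410251 and 47696842) are 286592 bases apart for a 60-base probe. It read -1.999, -1.04, -1.55 and -1.69 on occlusion arrays and -2.58, -1.91, -1.92 and -2.28 on control arrays. The groups overlapped in occlusion 1 alone, and on that array the 10 spots were uneven, from 94.4 to 580 in processed intensity, with a spot SD of 0.78 on the log2 scale beside 0.08 to 0.26 on the other 7 arrays. The difference was 0.60 with an SE of 0.23, or 1.52-fold (adjusted p = 0.421 in limma). The pair is shown because the probes share a run of 32 bases and so do not count as independent readings of Syt1. A stretch of 30 bases of each follows, 5′ to 3′, with the part of the shared run that falls in it in capitals.
Syt1 A_44_P125913: aggaaaagggagGAAAGAACGCCATTAACA
Syt1 A_44_P292689: attaagattgaaGAAAGAACGCCATTAACA

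The third Syt1 probe, A_44_P149993 (chr7:47263766-47263825), shared no run of 20 bases with any other probe. It read -1.01, -1.41, -2.03 and -0.81 on occlusion arrays and -1.54, -2.06, -1.33 and -1.25 on control arrays. The groups were mixed, and the difference of 0.23 was smaller than its SE of 0.29 (adjusted p = 0.797 in limma). Slide 1 alone gave -0.12 and slide 2 alone 0.59. Leaving out 1 array moved it from 0.06 (without control 2) to 0.47 (without occlusion 3). Of the 3 Syt1 probes, the overlapping pair was thus higher on both slides, while the probe elsewhere in the gene was lower on slide 1 and higher on slide 2.

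Syt2, the synaptotagmin of many fast-firing and hindbrain neurons, varied more between animals of 1 group than between groups. Its probe (A_44_P210492, chr13:47711810-47711869) read -0.96, -1.21, -2.40 and -1.19 on occlusion arrays and -0.52, 0.01, -2.79 and -1.52 on control arrays. The lowest arrays were occlusion 3 and control 3, and the controls alone spanned 2.79 log2 units, or 6.93-fold. Within-group SD was 0.98, above that of 96.3% of kept probes. The difference of -0.24 had an SE of 0.60 (adjusted p = 0.917 in limma). It turned to 0.08 without occlusion 3 and 0.17 without control 2, and was -0.76 without control 3. Slide 1 alone gave -0.66 and slide 2 alone 0.18.

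**Figure D2:**
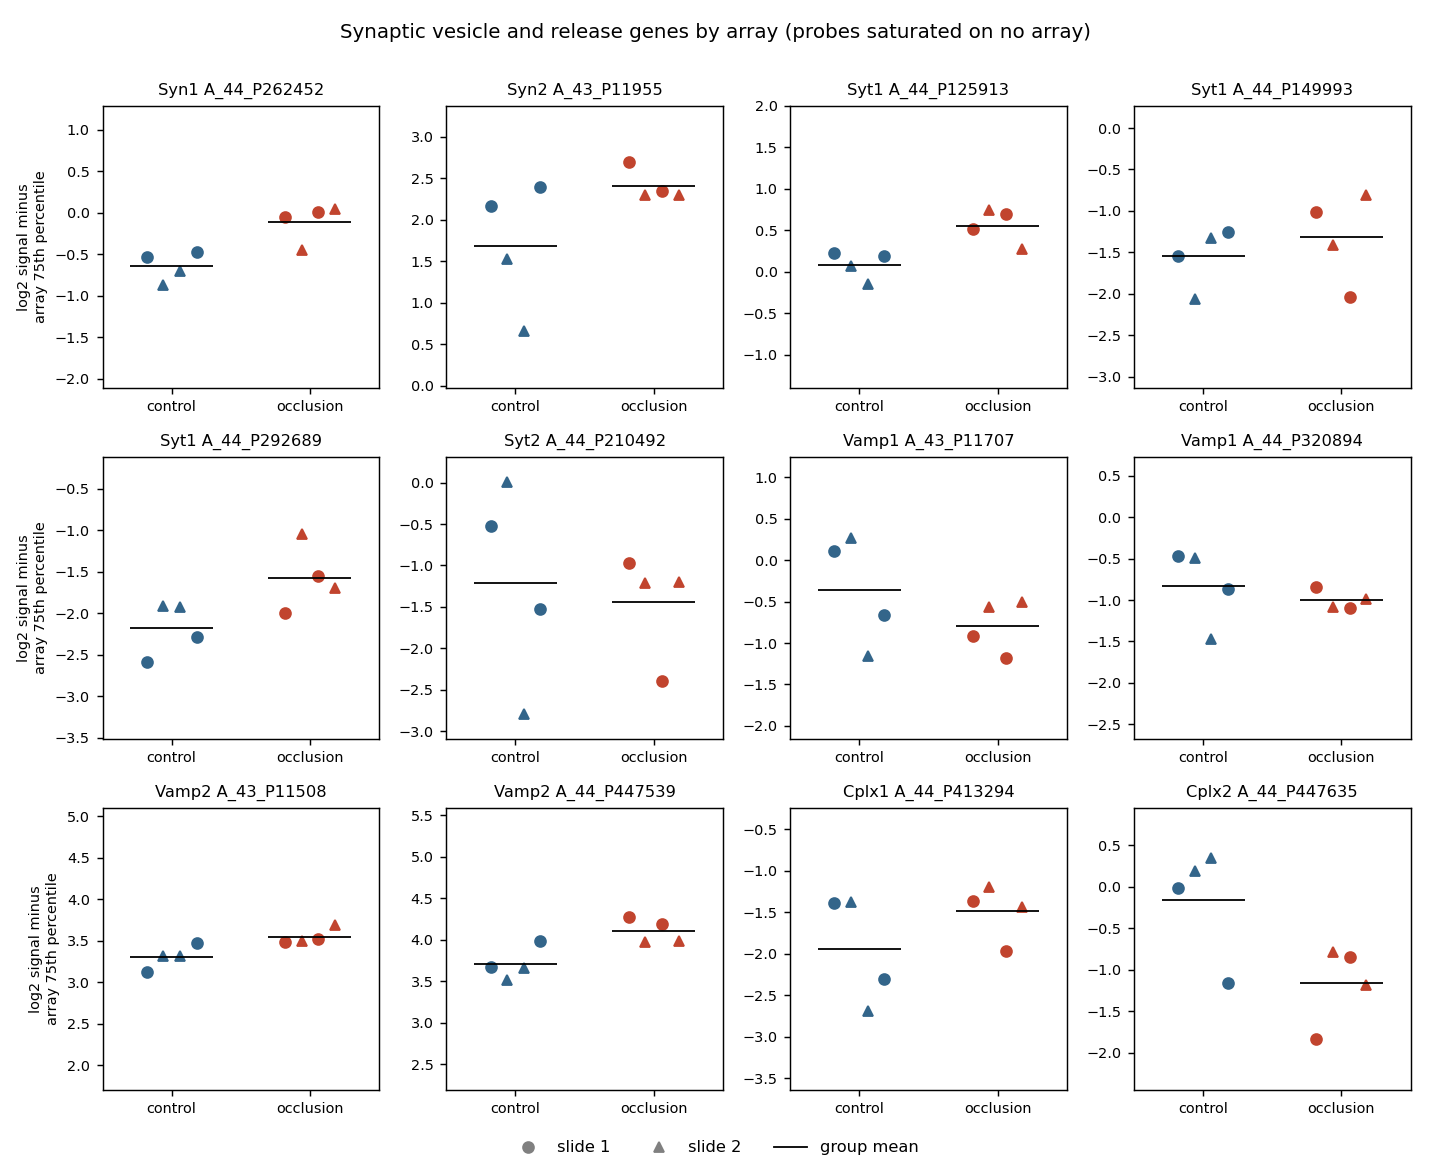
Level of each member probe that was saturated on no array (y axis, log2 signal minus the array's 75th percentile, each panel spanning the same range; 4 control and 4 occlusion arrays, circles on slide 1, triangles on slide 2, line at the group mean). Syn1, Syt1 A_44_P125913 and Vamp2 A_43_P11508 show groups that do not overlap, while Syt2 spans 2.79 log2 units among the controls.

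Snap25, the gene of the plasma membrane SNARE SNAP-25, gave no measurable difference because it was saturated. The probe (A_44_P371172, chr3:124799349-124799408) was printed 10 times and saturated on 4 of 4 control arrays and 3 of 4 occlusion arrays, occlusion 3 being the exception. Levels were 5.24, 5.20, 5.06 and 4.75 on occlusion arrays and 5.01, 5.07, 4.91 and 4.91 on control arrays. Processed intensities on the saturated arrays were 57660 to 61080. The order of levels there is largely the reverse of the arrays' 75th percentiles, and is no reading of the transcript. Occlusion 4 had the highest 75th percentile (2216) and the lowest level. No fold is given for it, and the measured difference was 0.09 with an SE of 0.13 (adjusted p = 0.838 in limma), 0.19 on slide 1 and -0.018 on slide 2.

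Vamp2, the vesicle SNARE of most forebrain synapses, was higher on occlusion arrays at both probes that could be measured. A_44_P447539 (chr10:55865141-55865200) read 4.27, 3.97, 4.19 and 3.98 on occlusion arrays and 3.67, 3.51, 3.66 and 3.99 on control arrays. Only control 4 reached into the occlusion range. The difference was 0.40 with an SE of 0.14, or 1.32-fold (adjusted p = 0.403 in limma), and 0.40 and 0.39 on slides 1 and 2.

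The other Vamp2 probe, A_43_P11508 (chr10:55865439-55865498), read 3.49, 3.49, 3.52 and 3.69 on occlusion arrays and 3.12, 3.31, 3.31 and 3.47 on control arrays. The groups did not overlap, by a gap of 0.02, and the within-group SD of 0.12 was the lowest of the 14 member probes. The difference was 0.24 with an SE of 0.11 (adjusted p = 0.459 in limma), and 0.21 and 0.28 on slides 1 and 2. A further Vamp2 probe, A_44_P555123 (chr10:55863720-55863779), is annotated to the vamp2B mRNA and was well above background on 0 of 8 arrays, so it was not tested.

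Vamp1, the vesicle SNARE typical of brainstem and spinal synapses, was lower on average at both of its probes, with wide spread among the controls. A_43_P11707 (chr4:161583528-161583587) read -0.91, -0.57, -1.17 and -0.51 on occlusion arrays and 0.11, 0.27, -1.15 and -0.67 on control arrays. Controls 1 and 2 lay above all occlusion arrays, and controls 3 and 4 within their range. The difference was -0.43 with an SE of 0.32 (adjusted p = 0.640 in limma), -0.22 without control 2 and -0.69 without control 3. It was -0.77 on slide 1, -0.09 on slide 2 and -0.30 without occlusion 3.

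At the other Vamp1 probe, A_44_P320894 (chr4:161582160-161582219), the readings were -0.85, -1.08, -1.10 and -0.99 on occlusion arrays and -0.47, -0.49, -1.48 and -0.87 on control arrays. Controls 1 and 2 were again above every occlusion array and control 3 below every one. The difference was -0.18 with an SE of 0.22 (adjusted p = 0.799 in limma). It was -0.06 without control 1 and -0.39 without control 3, and -0.30 and -0.05 on slides 1 and 2.

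Cplx1, the complexin of many inhibitory and fast-firing neurons, read -1.37, -1.19, -1.97 and -1.43 on occlusion arrays and -1.38, -1.37, -2.69 and -2.31 on control arrays (A_44_P413294, chr14:1732341-1732400). Controls 3 and 4 were below all occlusion arrays, while controls 1 and 2 were within their range. The difference was 0.45 with an SE of 0.33 (adjusted p = 0.626 in limma), and 0.20 without control 3 and 0.61 without occlusion 3. Slide 1 gave 0.18 and slide 2, which holds control 3, 0.72.

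Cplx2, the complexin prominent in excitatory forebrain neurons, had the largest difference of any member. Its probe (A_44_P447635, chr17:16315831-16315890) read -1.84, -0.78, -0.85 and -1.18 on occlusion arrays and -0.01, 0.20, 0.35 and -1.16 on control arrays. Controls 1 to 3 were above all occlusion arrays, and control 4 lay among them. Means were -1.16 ± 0.48 (SD, n = 4) on occlusion and -0.16 ± 0.69 (SD, n = 4) on control arrays, which is 2.004-fold higher on controls. The difference of -1.003 had an SE of 0.37 and an adjusted p of 0.407 in limma, so it did not pass the test. It was -0.75 on slide 1 and -1.25 on slide 2, and ranged from -1.34 without control 4 (adjusted p = 0.139 in limma) to -0.78 without occlusion 1. Without control 3, its highest control, it was -0.84.

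The probes of a pair differ in sequence, and they are shown because a probe that also bound its paralogue would mix their signals. Each was compared only with its paralogue's probe and not with its paralogue's transcript, so whether it bound the paralogue was not tested. The stretches below, 30 bases each and 5′ to 3′, carry in capitals the longest run of bases that each probe shares with the probe of its paralogue.
Syt2 A_44_P210492: tctctgaagcctGAGGAAgaagtggatgct
Syt1 A_44_P125913: aaggaaaaggGAGGAAagaacgccattaac
Vamp1 A_43_P11707: TGAAgtgtctgagaagttagcatggctgag
Vamp2 A_44_P447539: taattcctgccTGAAatctctggcctcatc
Cplx1 A_44_P413294: ggaaggcagaGGACTccaaccacacttgaa
Cplx2 A_44_P447635: agcctgtaggatGGACTtcgtcatgaagca
The shared runs were 6 bases for the synaptotagmins, 4 for the VAMP genes and 5 for the complexins. Of the member probes, only the overlapping Syt1 pair shared 20 or more bases with any other probe on the array.

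For each pair, the difference between its probes was taken on every array and compared between groups, so that only an unequal change of the paralogues gives a value away from 0. The clearest pair was the complexins. Cplx1 minus Cplx2 was 0.47, -0.41, -1.12 and -0.25 on occlusion arrays and -1.37, -1.57, -3.03 and -1.14 on control arrays. Every occlusion array lay above every control array, occlusion 3 and control 4 being 0.03 apart. The difference of differences was 1.45 with an SE of 0.54. The exact permutation test over 70 assignments (two-sided) gave p = 0.0286, the smallest this design allows, which became 0.0857 after Benjamini-Hochberg adjustment over the 3 pairs. Permuting only within slides gave an exact permutation p of 0.0556 (adjusted p = 0.167), and only within replicate numbers 0.125 (adjusted p = 0.250), the smallest that each of these allows. It was 0.93 on slide 1 and 1.97 on slide 2, and 1.03 to 1.72 when an array was left out, lowest without control 3.

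Vamp1 minus Vamp2 was lower on occlusion arrays by a difference of differences of -0.83 with an SE of 0.45 (exact permutation p = 0.171, adjusted p = 0.257). All 4 pairings of Vamp1 and Vamp2 probes gave a value below 0, the others being -0.67, -0.57 and -0.42 with exact permutation p-values of 0.229, 0.114 and 0.257. Syt1 minus Syt2 gave 0.71 with an SE of 0.68 (exact permutation p = 0.314, adjusted p = 0.314), and it was 1.16 without control 3, 0.34 without occlusion 3 and 0.30 without control 2. The other 2 Syt1 probes set against Syt2 gave 0.47 (exact permutation p = 0.600) and 0.84 (exact permutation p = 0.343). Thus no pair passed 0.05 after adjustment. The 3 pairs were not all independent of the values above, being made from the same probes.

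**Figure D3:**
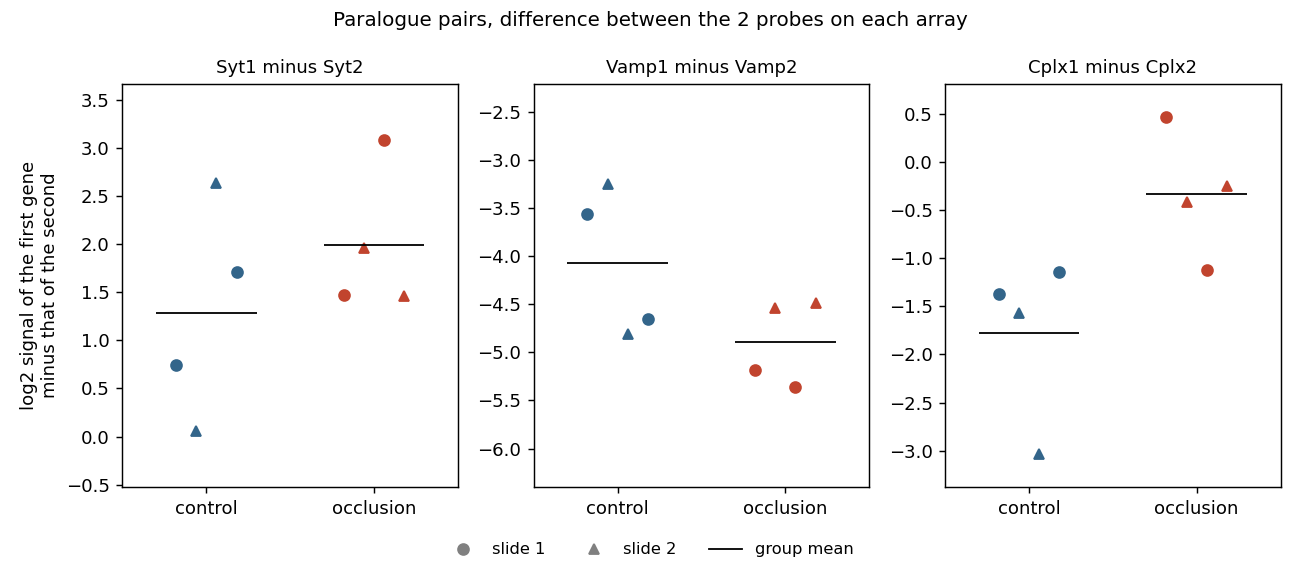
Difference on each array between the probes of a paralogue pair (y axis, log2, first gene minus second; 4 control and 4 occlusion arrays, circles on slide 1, triangles on slide 2, line at the group mean). The height of a panel's points depends on the probes and has no meaning of its own. For Cplx1 minus Cplx2 all occlusion arrays (-1.12 to 0.47) lie above all control arrays (-3.03 to -1.14), while the other pairs overlap.

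For several members the control arrays ran in the same order as the summed signal of a marker list, which was noticed after the values of 10 marker lists were seen. Among the controls, Syt2, Vamp1 A_43_P11707 and Cplx1 all ran from control 2, the highest, through control 1 and control 4 to control 3, the lowest. The summed signal of 7 medial habenula markers had that order too, at 31.4 on control 2, 19.1 on control 1, 5.54 on control 4 and 4.50 on control 3. Between controls 4 and 3 Tac1 set the order of the sum, at 2.13 and 1.31 on the log2 scale. Slc18a3 (-0.95 and 0.96) and Chat ran the other way there, and the remaining markers ran as Tac1 did. On occlusion arrays 1 to 4 that sum was 8.19, 18.1, 2.87 and 14.0, lowest on occlusion 3, where Syt2, Vamp1 and Cplx1 were lowest also. The full order was not shared there. The habenula sum was highest on occlusion 2, as was Cplx1, while Syt2 was highest on occlusion 1 and Vamp1 A_43_P11707 on occlusion 4. By group the habenula sum ranged from 2.87 to 18.1 on occlusion and from 4.50 to 31.4 on control arrays, with 4 of the 7 markers higher and 3 lower on occlusion arrays. Cplx2 had another order among the controls, highest on control 3, then control 2, control 1 and control 4. The sum of 9 GABA neuron markers had the same order there (66.1, 27.1, 23.2 and 22.3). The sums of oligodendrocyte and astrocyte markers also had it, but on occlusion arrays neither ran in the order of Cplx2. On occlusion arrays 1 to 4 the GABA sum was 6.96, 5.26, 43.8 and 7.78, which is not the order of Cplx2: occlusion 2 had the highest Cplx2 level and the lowest GABA sum. Of the 9 GABA markers, 8 were lower on occlusion arrays (median difference -1.35). Esrrg, the tenth, was not kept. Other lists gave such matches too. Among the controls Syn2 and Syp, the latter saturated on some arrays, ran from control 4 through 1 and 2 to 3. The sum of relay neuron markers had that order (5.05, 3.74, 2.34 and 1.99). The second Vamp1 probe, A_44_P320894, ran from control 1 through 2 and 4 to 3, as did the sum of cortical and hippocampal markers (6.02, 5.49, 5.16 and 4.41). Syt1 A_44_P125913 ran from control 1 through 4 and 2 to 3. The sum of endothelial and pericyte markers had that order (9.98, 9.09, 8.97 and 8.79). Snap25, saturated on all controls, ran from control 2 through 1 and 3 to 4. The sum of choroid plexus and ependymal markers did so too (14.1, 12.4, 11.4 and 4.79). The part of these cell types in the members' values was not tested.

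Relay neuron markers, which define the labelled tissue, were present: all 10 on the array were kept, and all 10 were higher on occlusion arrays (median difference 0.83). Of these, 3 were saturated on some array, and the other 7 summed to 4.75 to 7.11 on occlusion and 1.99 to 5.05 on control arrays. General neuron markers were 7 higher and 3 lower, with sums over 6 of the 10 of 61.2 to 76.2 and 48.4 to 68.5. Oligodendrocyte markers were 2 higher and 8 lower (median -0.46, sums over 7 of the 10 of 26.5 to 44.1 and 34.0 to 59.9). Markers of cortical and hippocampal neurons were 6 higher and 2 lower (sums over 8 of 3.57 to 5.29 and 4.41 to 6.02), with Emx1 and Fezf2 among those not kept. Choroid plexus and ependymal markers were 1 higher and 6 lower (sums over 7 of 7.09 to 13.3 and 4.79 to 14.1, Kl not kept). Astrocyte markers were 3 higher and 5 lower (sums over 6 of 25.2 to 30.6 and 28.8 to 41.8), and microglial markers 3 higher and 5 lower (sums over 8 of 21.9 to 29.9 and 24.3 to 29.3). Endothelial and pericyte markers were 4 higher and 3 lower (sums over 6 of 8.94 to 10.9 and 8.79 to 9.98, Pecam1 not kept). Emx2, a gene of the cortical and hippocampal list, was picked out after its values were seen. It had a difference of -2.77 with an SE of 0.52, all occlusion arrays lying below all controls (adjusted p = 0.403 in limma). In the same list Prox1 went the other way, by 1.55 with an SE of 0.40 (adjusted p = 0.403 in limma). All its occlusion arrays lay above all controls, but it was well above background on only 4 arrays. Gad1 of the GABA list and Clic6 of the choroid plexus list were also lower without overlap, with differences of -2.52 and -0.91. Lef1, Ttr and Mbp were higher without overlap, Mbp being saturated on some arrays and lacking a value on occlusion 4. Over all kept probes 3.9% were higher and 2.82% lower without overlap. None of these genes passed the adjusted test. In bulk tissue, fewer cells of a type and less RNA per cell cannot be told apart. The part of the relay, neuron, GABA and oligodendrocyte lists in the higher levels of Syn1, Vamp2 and the overlapping Syt1 probes was not tested.

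**Figure D4:**
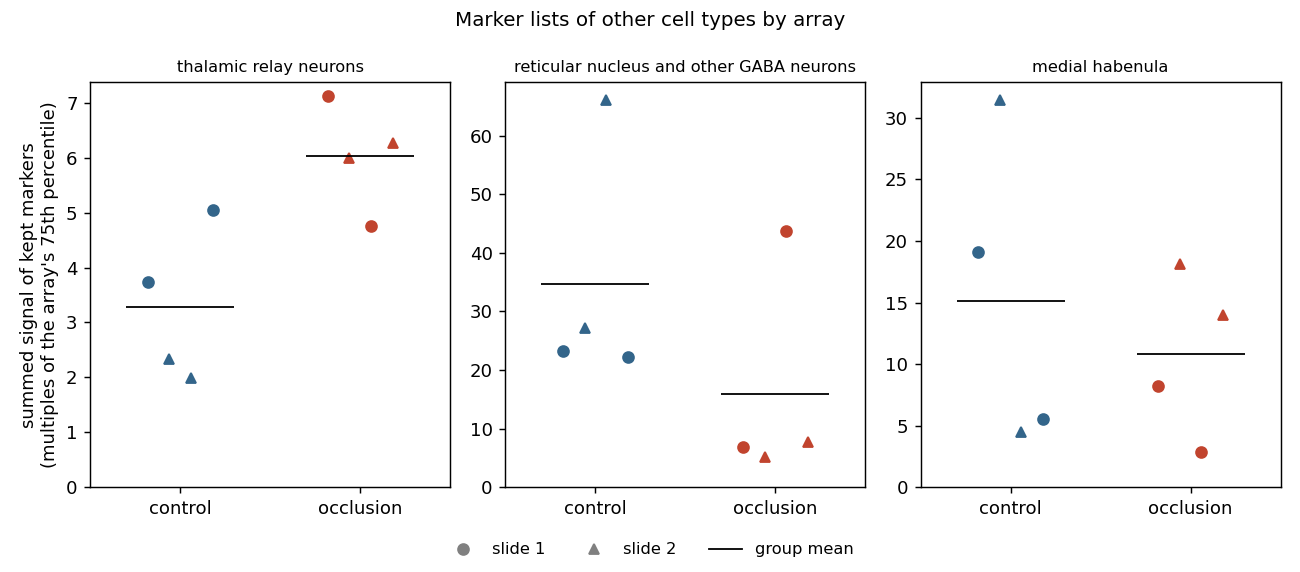
Summed signal of the kept markers of relay neurons, GABA neurons and the medial habenula (y axis, multiples of the array's 75th percentile, over markers measured on all 8 arrays and saturated on none; 4 control and 4 occlusion arrays, circles on slide 1, triangles on slide 2, line at the group mean). The GABA sum is highest on control 3 (66.1) and occlusion 3 (43.8), and the habenula sum is highest on control 2 (31.4).

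Other genes of vesicle docking, priming, fusion and recycling, listed apart from the 10, also leaned to higher levels on occlusion arrays without passing the test. Of 87 genes listed, 85 were on the array and 80 were kept. Of the 80, 59 were higher and 21 lower, where 53.6% of all kept probes were higher, and 0 passed the adjusted test. At an unadjusted p under 0.05 in limma 9 were higher and 2 lower, beside 6.48% and 4.61% of all kept probes. Their median difference was 0.16, beside 0.02 over all kept probes, and it was 0.08 on slide 1, 0.24 on slide 2 and 0.12 without control 3. The groups did not overlap for 5 genes that were higher (Rims2, Rims1, Dnm1, Pacsin1 and Vamp7) and for 1 that was lower (Stx6), beside 3.9% and 2.82% of all kept probes. Those genes are listed here after their values were seen. Vamp7 had no value on occlusion 4, so its groups were 3 against 4 arrays. Syngr3, Cltc, Clta and Bin1 were saturated on some array, and the other 76 had a median of 0.17.

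At the top of that list by moderated statistic were Rims2, Rims1 and Syt7. Rims2, a scaffold of the active zone where vesicles are primed, read 0.05, 0.04, -0.23 and -0.04 on occlusion arrays and -0.62, -1.17, -0.95 and -0.28 on control arrays. All occlusion arrays were above all controls, and the difference was 0.71 with an SE of 0.19 (adjusted p = 0.403 in limma). Rims1, its paralogue, differed by 0.68 with an SE of 0.22, and Syt7, a slow, high-affinity calcium sensor, by 0.72 with an SE of 0.23. For all 3 the difference was larger on slide 2 (1.06, 1.004 and 1.03) than on slide 1 (0.36, 0.36 and 0.41).

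The lowest 3 were SNARE genes known from membrane traffic in many cell types. Stx6, a syntaxin of the trans-Golgi network, read -1.44, -1.30, -1.38 and -1.41 on occlusion arrays and -0.995, -0.93, -0.40 and -1.25 on control arrays. All occlusion arrays lay below all controls, with a difference of -0.49 and an SE of 0.17 (adjusted p = 0.404 in limma). Snap23, the widely expressed relative of Snap25, differed by -0.36 with an SE of 0.14, and Vamp3, the widely expressed relative of Vamp2, by -0.26 with an SE of 0.16. Both relatives were thus lower on average while both measurable Vamp2 probes were higher, and the difference between them was not tested.

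**Figure D5:**
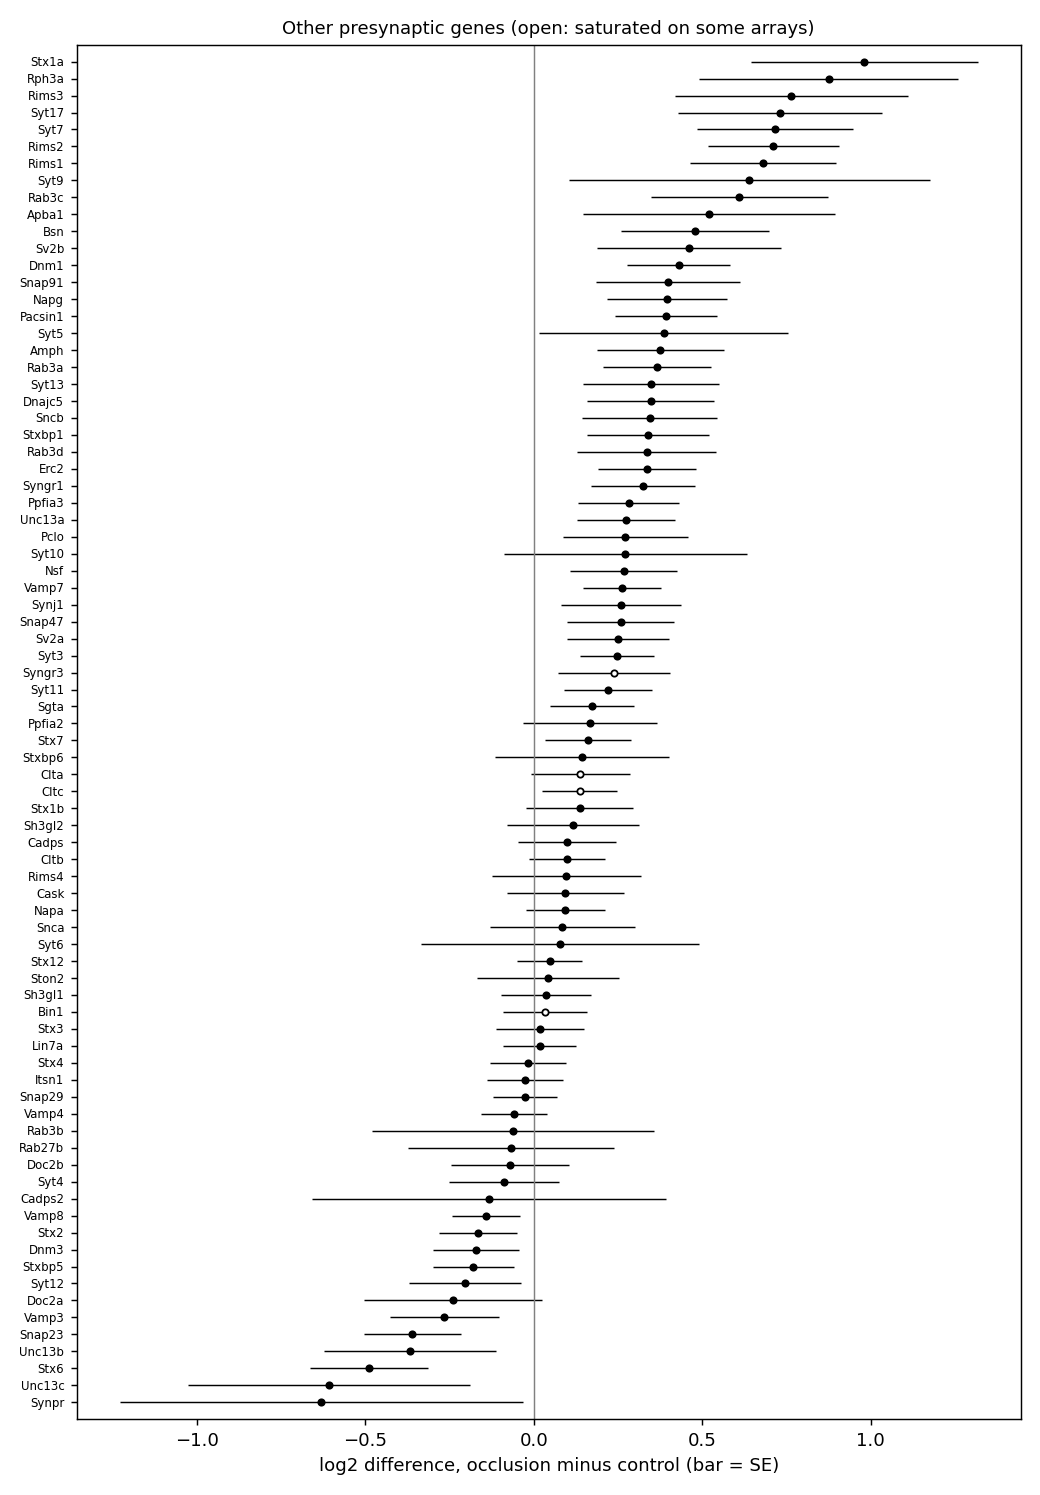
Difference between occlusion and control arrays (x axis, log2, bars of 1 SE over up to 8 arrays) for the 80 kept genes of the wider presynaptic list, ordered by size, with open points where a probe was saturated on some array. The 59 points to the right of 0 outnumber the 21 to the left, and no gene passed the adjusted test.

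For the paralogues, the genes with the most similar pattern were sought among 16560 other probes that were kept, measured on all 8 arrays, never saturated and named by 1 symbol. Likeness was Pearson's r over the 8 arrays after each slide's mean was taken away. It is a description over few arrays that share slides and groups. Syt2 was most like Sytl2 (r = 0.991) and Fgf18 (r = 0.990). The Vamp1 probe was most like Trpt1 (r = 0.991) and Cabp1 (r = 0.984), and the Cplx1 probe most like Kcnma1 (r = 0.986) and Ralgapa1 (r = 0.975). Syt1 was most like Foxc2 (r = 0.991) and Anks1b (r = 0.990), Vamp2 like Slc6a5 (r = 0.978) and Upk3a (r = 0.977), and Cplx2 like Ipo7 (r = 0.977) and Col16a1 (r = 0.976). Group means were left in, so a gene picked for its likeness to Syt1 also carries Syt1's difference between groups. Anks1b, a postsynaptic adaptor, was higher on occlusion arrays by 0.82 with an SE of 0.23 (adjusted p = 0.403 in limma). Because of how it was picked, that is no separate result.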

How the data were processed

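Each of 8 one-colour Agilent arrays measured 1 animal, 4 per group, as the sample labels give them. The design text also mentions a reference design, but the deposited files hold 1 channel. Spots were read with Agilent Feature Extraction 9.5.1.1, per the file headers, and the authors deposited its processed intensity, which is linear, background-subtracted and not scaled between arrays. The series table repeats these intensities, deviating by at most 0.497%. Probe positions are those of the files (rn3), and no rn3 annotation was used, so exons and untranslated regions are not stated.

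Control and outlier-flagged spots were left out, and log2 intensity was centred on each array's 75th percentile, which was taken over all non-control spots. Repeat spots were averaged, and saturated spots kept at their value. Probes well above background on at least 4 arrays, with at least 2 values per group, were kept (27152). Groups were compared with limma 3.58.1 in R 4.3.3 (lmFit and eBayes, two-sided, at 0.05 after Benjamini-Hochberg adjustment over every kept probe), which was tested on simulated data. Paralogue contrasts used exact permutation tests.

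All probes of the members are named, with the 3 highest and 3 lowest genes of the wider list by moderated statistic and the 2 genes most like each paralogue. A gene's representative probe was the brightest one saturated on no array. All 10 members matched a RefSeq symbol. Members, gene lists and tests were chosen with earlier results of these data known. Replicates were taken as separate animals from the design text. With 8 arrays, their number limits the precision. Alternatives were other scalings, normexp background correction (offset 50), other filters, flagged spots kept, the slide or the replicate number as a block, each slide alone, a trended robust variance, each array left out, the deposited table, and other representative probes. After seeing the data, every other pairing of probes and the median over repeat spots were added.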

Additional observations from a re-analysis of the deposited data

Results flagged for a closer look

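On the Syn2 probe A_43_P11955, occlusion 1 read 2.70 while the other 3 occlusion arrays read 2.30 to 2.34. Its gap to the nearest of them was 0.880 of the group's range, above Dixon's critical value for a group of 4. Of 72 groups looked at in this way 1 stood out, and chance gives about 1 in 20.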

How the results depend on the processing

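Member probes called stayed at 0 of 14 (0 of 15 with no filter on dim probes, where Vamp2 A_44_P555123 was tested too) under all 21 alternatives, with a lowest adjusted p of 0.139 in limma. Genes of the wider list called stayed at 0 as well. Over all kept probes the count was 0 except with normexp background correction, which called 1, the unnamed probe A_44_P114424 (1.24 with an SE of 0.12, adjusted p = 0.0478 in limma). Cplx2, Cplx1, Syn1, Syn2, Syp, Vamp2, Vamp1 and the overlapping Syt1 probes kept their direction in every alternative. Snap25 turned to -0.00033 with quantile normalisation and -0.018 on slide 2 alone. Syt1 A_44_P149993 turned to -0.12 on slide 1 alone. Syt2 turned to 0.18 on slide 2 alone, and leaving out 1 array moved it between -0.76 and 0.17, with 0.08 without occlusion 3. The paralogue contrasts ran from 0.93 to 1.97 (complexins), from -1.16 to -0.42 (VAMP genes) and from 0.30 to 1.16 (synaptotagmins) over all settings. For the complexins the adjusted exact permutation p was 0.167 when blocked by slide and 0.250 under the replicate block. The contrast itself stayed at 1.45 under either block, and the unadjusted p was the smallest that each block allows. The cause of the shifts in the differences and contrasts was not tested. Same-numbered arrays did not deviate together in all cases (correlations of 0.35, 0.51, -0.07 and -0.28), so the numbers were not taken as pairs. Pairs 1 and 2 also share a slide and the others do not, so slide and number cannot be told apart here. With the replicate number as a block, 0 probes were called (lowest adjusted p = 0.453 in limma). Saturation limits Syp and Snap25.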
